A study of Mus musculus with 8 samples.

Results

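The cytochrome P450 genes were taken as all genes whose symbol begins with Cyp followed by a digit, with Cyp51 left aside. Of 22180 genes tested on the array, 97 met this rule. They fell into 15 families and 38 subfamilies, of which 27 had 1 member, and comprised 92 protein-coding genes and 5 pseudogenes. Each gene was represented by the probe set with the highest mean among those annotated to it alone.

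RNA came from colon endothelial cells early after bone marrow transplantation, and the comparison asks how donor type bears on it. All recipients were female C57BL/6 mice conditioned for 5 days with busulfan and cyclophosphamide, then given bone marrow and T cells, and the colon was taken on day 2. The allogeneic group (4 arrays) had LP/J donors, whose T cells can attack the host in graft-versus-host disease, and the syngeneic group (4 arrays) had C57BL/6 donors, so its cells shared the host's genome. Cells negative for CD45 and CD11b and positive for CD31 were sorted from digested colon, and 700 pg of total RNA was amplified per array. No untreated mouse was part of the comparison, so both groups carry the effects of conditioning and transplantation.

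Cytochrome P450 enzymes are heme proteins that insert an oxygen atom into small molecules, drawing electrons from a reductase in the endoplasmic reticulum or from ferredoxin in mitochondria. The families Cyp1, Cyp2 and Cyp3 handle mainly foreign compounds and, in several Cyp2 subfamilies, arachidonic acid. Cyp4 enzymes hydroxylate the ends of fatty acids, and the remaining families act on sterols, bile acids, steroid hormones, vitamin D and retinoic acid. In the intestine, P450 enzymes are best known from the epithelium, the first tissue that meets compounds from the diet.

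Values are normalized log2 signals, where 1 unit is a 2-fold difference, and the median gene had a mean of 5.33. Of the 97 genes, 29 lay above the median gene and 68 did not. For 8 genes (Cyp2a4, Cyp2a5, Cyp2b19, Cyp2c50, Cyp2c53-ps, Cyp3a57, Cyp4a12a and Cyp7a1) every array was at or below 3.18, the highest value of 3 Y-linked genes, which female tissue does not transcribe. No detection calls were used, so low values are given as low signal, and signals of different probe sets do not rank genes by RNA amount.

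The sorted samples held endothelial and epithelial transcripts side by side. The endothelial genes Pecam1 and Cdh5 averaged 10.4 and 10.0 over the 8 arrays, and the epithelial genes Epcam and Krt8 averaged 9.36 and 11.9. The mean of 16 colon epithelial genes lay between 10.5 and 10.7 on allogeneic arrays and between 9.91 and 10.5 on syngeneic arrays (two-sided exact permutation p = 0.0571, adjusted p = 0.386 over 9 lists). All 16 of these genes had a positive change, with a median of 0.18, and 0 of them passed the test. The changes ran from 0.0031 to 1.53, the latter for Aqp8, whose groups did not overlap (adjusted p = 0.0575 in limma). The mean of 15 endothelial genes lay between 7.84 and 8.57 on allogeneic arrays and between 8.20 and 10.1 on syngeneic arrays (exact permutation p = 0.171). For the goblet, crypt and cycling, stromal, liver, small intestine and Y-linked lists, the exact permutation p was at least 0.286. A list mean can hide changes of single genes. In the liver list they ran from -1.32 (Tat) to 1.83 (Ttr) and in the goblet list from -0.22 (Tff3) to 1.57 (Clca1), none past limma's adjusted test. Syngeneic arrays 3 and 4 had the 2 highest endothelial means, 9.26 and 10.1, and the 2 lowest epithelial means, 10.2 and 9.91. In such mixed samples, fewer cells of a type and less RNA per cell cannot be told apart. Cyp changes of at least 1 are given below with and without these arrays.

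**Figure D1:**
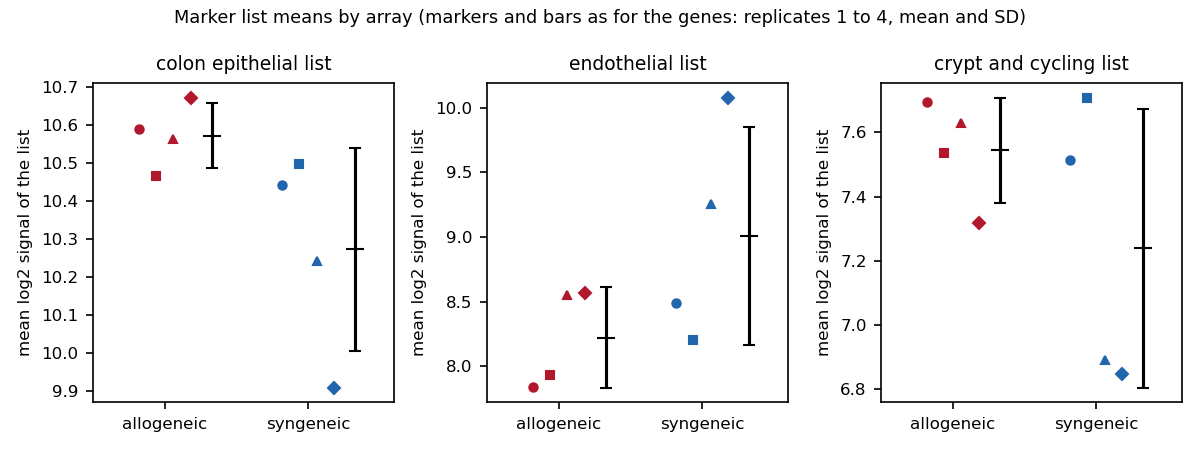
Mean log2 signal of the colon epithelial (16 genes), endothelial (15 genes) and crypt and cycling (7 genes) lists on each of the 4 allogeneic (red) and 4 syngeneic (blue) arrays, with mean and SD. Syngeneic arrays 3 (triangle) and 4 (diamond) have the highest endothelial means, 9.26 and 10.1, and the lowest epithelial means, 10.2 and 9.91.

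Across the family, 4 genes rose in allogeneic samples and 0 fell. The 4 genes were Cyp2c68, Cyp2c69, Cyp2f2 and Cyp2w1, all of the Cyp2 family, at an adjusted p below 0.05 in limma. They made up 4.12% of the Cyp genes, where 0.356% of all genes rose by the same rule and 0.113% fell. Without syngeneic arrays 3 and 4, 2 Cyp genes passed, Cyp2c68 and Cyp2c69, while the number of all genes that rose went from 79 to 26. At an unadjusted p below 0.05, 19 Cyp genes (19.6%) were higher, against a background of 7.81% of all genes, and 4 (4.12%) were lower, against 5.43%. A log2 change of at least 1 was seen in 11 Cyp genes (11.3%) and in 0.631% of all genes. In 7 Cyp genes every allogeneic array exceeded every syngeneic array (7.22%, background 5.18%), and in 3 every allogeneic array lay below (3.09%, background 3.36%). The median log2 change of the family was 0.0071, beside -0.0050 for all genes. A positive change was seen in 53 Cyp genes (54.6%), against 49% of all genes.

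**Figure D2:**
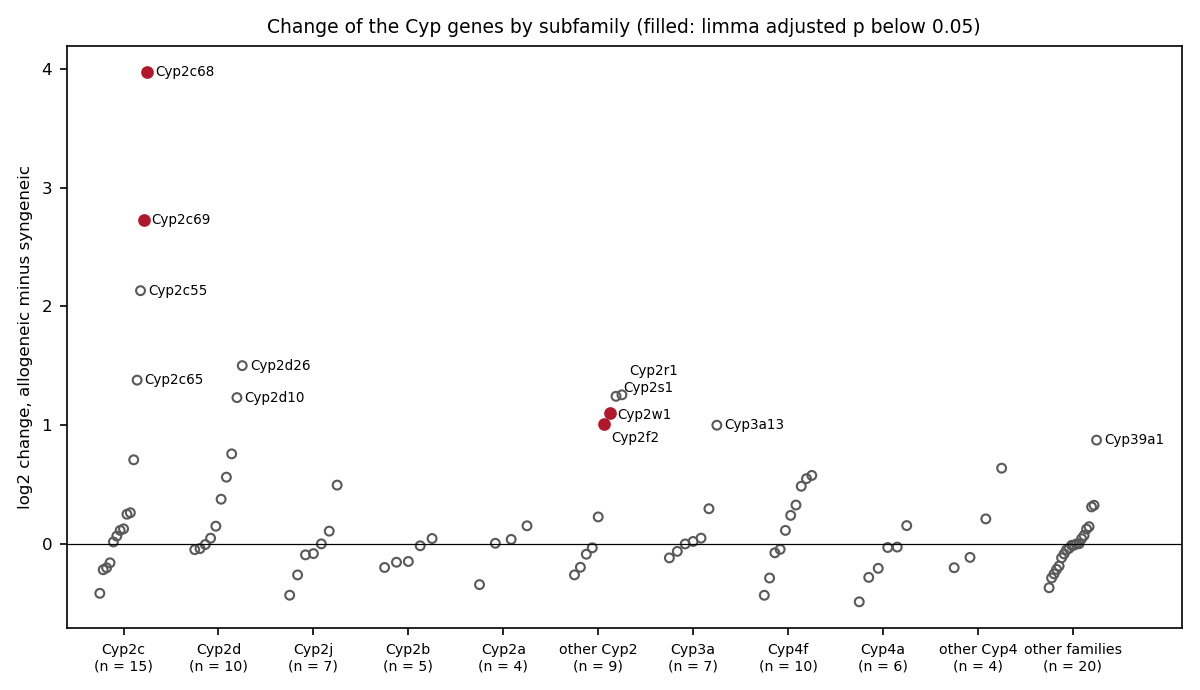
Log2 change, allogeneic minus syngeneic, of each of the 97 Cyp genes by subfamily, with the number of genes below each name. Filled points passed limma's test after adjustment over all 22180 genes, and the highest are Cyp2c68 at 3.97 and Cyp2c69 at 2.73.

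Within the Cyp2c subfamily, whose enzymes in mice include several that oxidize arachidonic and linoleic acid, 2 of 15 genes rose and 0 fell. Of the 15, 11 had a positive change and the median was 0.13. The genes that rose were Cyp2c68 and Cyp2c69, which lie close together in the Cyp2c cluster on chromosome 19. Their promoters are shown with those of their neighbours Cyp2c67 and Cyp2c40, because the windows are closely similar, while Cyp2c68 and Cyp2c69 rose and Cyp2c40 did not pass the test. Each line is the RefSeq window from 250 bases before to 50 bases after the transcription start, on the minus strand of GRCm38.p6, with the letters CAAAGTCCA in capitals. The windows are chr19:39648993-39649292 for Cyp2c67, chr19:39741052-39741351 for Cyp2c68, chr19:39812765-39813064 for Cyp2c40 and chr19:39886720-39887019 for Cyp2c69.
Cyp2c67: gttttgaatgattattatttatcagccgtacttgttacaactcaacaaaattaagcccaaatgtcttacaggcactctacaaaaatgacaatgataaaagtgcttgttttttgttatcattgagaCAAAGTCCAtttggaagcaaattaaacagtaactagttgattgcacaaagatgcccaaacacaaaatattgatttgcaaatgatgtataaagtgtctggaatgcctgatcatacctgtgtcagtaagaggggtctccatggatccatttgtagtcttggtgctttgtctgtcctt
Cyp2c68: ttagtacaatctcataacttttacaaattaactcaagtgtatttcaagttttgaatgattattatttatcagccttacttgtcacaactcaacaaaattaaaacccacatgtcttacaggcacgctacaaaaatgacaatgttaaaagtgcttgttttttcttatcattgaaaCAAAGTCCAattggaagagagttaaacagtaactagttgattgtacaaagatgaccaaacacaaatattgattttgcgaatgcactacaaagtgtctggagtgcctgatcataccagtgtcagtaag
Cyp2c40: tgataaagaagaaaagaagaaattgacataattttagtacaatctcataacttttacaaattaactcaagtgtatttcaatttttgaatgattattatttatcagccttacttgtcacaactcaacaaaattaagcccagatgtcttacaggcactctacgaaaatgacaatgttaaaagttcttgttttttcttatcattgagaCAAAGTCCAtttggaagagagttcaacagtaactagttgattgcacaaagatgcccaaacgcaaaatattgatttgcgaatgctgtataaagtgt
Cyp2c69: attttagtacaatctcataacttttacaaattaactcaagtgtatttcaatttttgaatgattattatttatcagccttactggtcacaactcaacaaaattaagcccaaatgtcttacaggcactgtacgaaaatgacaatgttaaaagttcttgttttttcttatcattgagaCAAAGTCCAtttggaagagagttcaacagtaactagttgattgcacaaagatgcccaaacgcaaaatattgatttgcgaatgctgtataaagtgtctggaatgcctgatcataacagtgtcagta

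The capital letters match a form of the sequence bound by HNF4 factors, nuclear receptors of liver and gut epithelium. They begin 125 bases before the start in Cyp2c67, 77 in Cyp2c68, 45 in Cyp2c40 and 75 in Cyp2c69. On either strand, these letters occur in 6 of 14 Cyp2c windows, in 8 of 79 windows of 71 Cyp genes and in 0.475% of all 32851 windows. The match is present in Cyp2c40, whose signal was low on every array, as well as in the genes that rose. The TATA letters TATAAA occur in 10 of 14 Cyp2c windows and in 13.6% of all windows, and not in that of Cyp2c68. They begin 40 bases before the annotated start in Cyp2c67, but after it in Cyp2c40 and Cyp2c69, by 40 and 10 bases. Counted over aligned bases only, Cyp2c68 was 93.6% identical to Cyp2c69 (277 of 296), 94.4% to Cyp2c40 (251 of 266) and 91.6% to Cyp2c67 (230 of 251). Likewise, Cyp2c40 was 98.9% identical to Cyp2c69 (267 of 270). In all, 14 letter patterns were searched on both strands, and the one in capitals was chosen for print after the matches were seen. The other 12 occur in these shares of all windows: CAAAGTNCA, which contains the capitals, in 1.41%, a shortened HNF1 sequence in 0.399% and the full HNF1 palindrome in 0.00913%. GCGTG occurs in 32.4% and its extension TNGCGTG in 5.07%, TTTATNN in 39.9% and its extension TTTATGG in 2.75%. AGTTCA occurs in 4597 of the 32851 windows and its direct repeat with a spacer of 4 bases in 0.0122%, AGATAA in 11.2%, TTNNGCAA in 10.8% and its extension TTGCGCAA in 0.183%. Such matches describe letters, not binding.

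Cyp2c68 had log2 signals of 8.33, 8.07, 8.22 and 9.17 on the allogeneic arrays, against 4.41, 5.07, 4.66 and 3.77 on the syngeneic arrays. The groups lay far apart, with the lowest allogeneic array well above the highest syngeneic array. The difference was 3.97 ± 0.30 (SE), or 15.7-fold, with an adjusted p of 0.000638 in limma. It was past the threshold in all 20 alternative fits, with changes between 3.35 and 4.17.

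Cyp2c69 had signals of 5.87, 6.31, 5.11 and 6.69 on the allogeneic arrays, against 3.38, 3.35, 3.23 and 3.10 on the syngeneic arrays. Here the syngeneic values sat close together at the low end of the scale, near those of the Y-linked genes, and all allogeneic values were above them. The difference was 2.73 ± 0.28 on the log2 scale (adjusted p = 0.0053), and no fold is given, because the syngeneic values lie near the low end of the scale. With the colon epithelial list mean in the model the change was 2.55 and no longer passed (adjusted p = 0.0941).

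A probe set annotated to both Cyp2c67 and Cyp2c68 gave the same direction. Its signals were 6.26, 5.64, 6.45 and 7.16 on the allogeneic arrays, against 4.06, 4.48, 3.69 and 3.22 on the syngeneic arrays, without overlap. The difference was 2.51, or 5.71-fold, with syngeneic array 4 (3.22) near the Y-linked genes. It was not tested, since the probe set names more than 1 gene. Cyp2c67 was measured here only together with Cyp2c68. The other 5 probe sets shared by several genes, of Cyp3a, Cyp4a and Cyp4v genes, had differences between -0.14 and 0.10. Cyp2c40, an arachidonic acid hydroxylase described in mouse intestine that lies between the genes that rose, had signals of 2.66, 2.38, 2.62 and 3.27 on the allogeneic arrays, against 2.66, 2.24, 2.67 and 2.35 on the syngeneic arrays. Its change of 0.25 did not pass the test (95% interval -0.15 to 0.65). Whether these probe sets tell the transcripts of these genes apart was not tested.

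Cyp2c55, a colon P450 that turns arachidonic acid into hydroxy and epoxy fatty acids, had a wider spread on the syngeneic arrays (SD 2.55) than any other Cyp gene. Its signals were 11.10, 11.87, 11.40 and 12.45 on the allogeneic arrays, against 11.54, 11.69, 8.72 and 6.34 on the syngeneic arrays. Syngeneic arrays 1 and 2 lay within the allogeneic range and syngeneic arrays 3 and 4 far below it. The change of 2.13 did not pass (95% interval -0.044 to 4.31, adjusted p = 0.389). It was 0.089 without syngeneic arrays 3 and 4, and 1.06 without array 4 alone. A second Cyp2c55 probe set had a change of -0.16.

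Cyp2c65, another arachidonic acid oxidase of the mouse gut, was also low on syngeneic arrays 3 and 4. Its signals were 7.84, 8.61, 7.96 and 8.42 on the allogeneic arrays, against 7.62, 7.96, 5.82 and 5.92 on the syngeneic arrays. Syngeneic array 2 lay within the allogeneic range, array 1 just below it and arrays 3 and 4 far below. The change was 1.38 with all arrays (adjusted p = 0.218) and 0.42 without syngeneic arrays 3 and 4. Cyp2c66, next to it in the cluster, had a change of 0.71 (adjusted p = 0.288), or 0.36 without syngeneic arrays 3 and 4. The remaining 9 genes of the cluster, among them the liver genes Cyp2c29, Cyp2c37 and Cyp2c54 and the bile acid hydroxylase Cyp2c70, had changes between -0.41 and 0.26, and none passed the test. The second probe set of Cyp2c29 had a change of -0.12, beside 0.067 for the first.

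**Figure D3:**
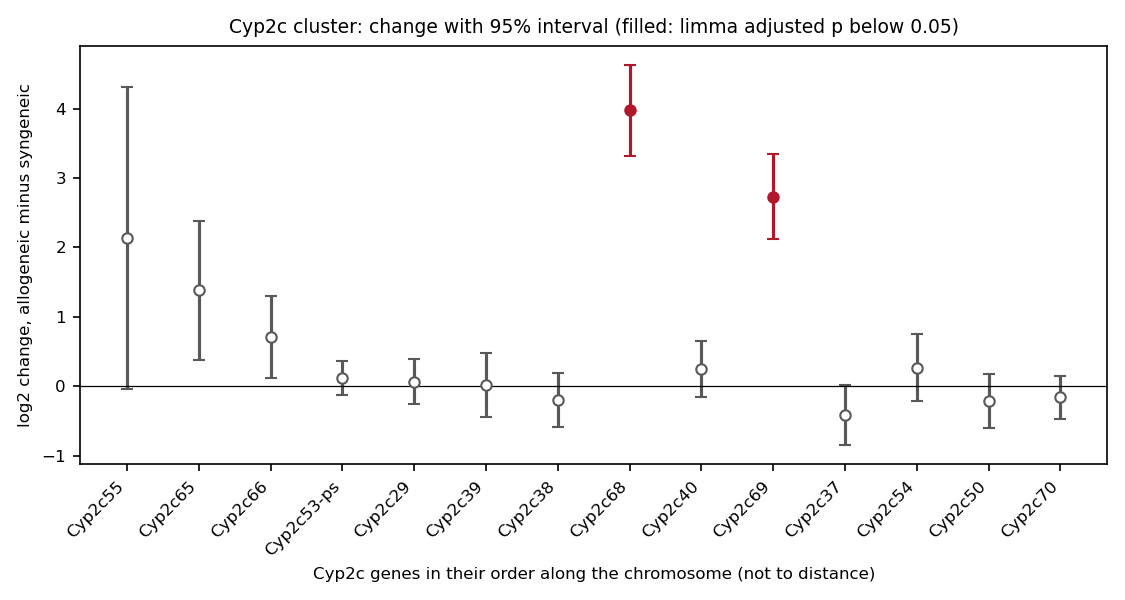
Log2 change, allogeneic minus syngeneic, with its 95% interval for 14 Cyp2c genes in their order along the chromosome, drawn without distances. Cyp2c68 (3.97) and Cyp2c69 (2.73) are filled because they passed limma's test, and Cyp2c40 between them is at 0.25.

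Of the single-member Cyp2 subfamilies, Cyp2f2 and Cyp2w1 rose. Cyp2f2, known for activating naphthalene in the club cells of mouse lung, had signals of 4.82, 5.13, 4.71 and 5.37 on the allogeneic arrays, against 4.07, 3.80, 4.06 and 4.05 on the syngeneic arrays. These values did not overlap and all lay near or below the median gene. The difference was 1.01 ± 0.16, or 2.01-fold (adjusted p = 0.0308). A second Cyp2f2 probe set, with a mean of 4.42 beside 4.50 for the one used, had a change of 0.085 (adjusted p = 0.875 among all probe sets). With the mean of the probe sets, the Cyp2f2 change was 0.55 and did not pass limma's test (adjusted p = 0.128). The call was lost without allogeneic arrays 1, 2 or 4 or syngeneic arrays 1 or 3, with changes of 1.07, 0.97, 0.89, 1.04 and 1.03. Without syngeneic arrays 3 and 4 the change was 1.07 (adjusted p = 0.106).

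Cyp2w1, known from fetal gut and from colon tumours, had signals of 6.49, 5.96, 6.27 and 6.13 on the allogeneic arrays, against 5.53, 5.26, 5.03 and 4.61 on the syngeneic arrays. The groups did not overlap. The difference was 1.11 ± 0.20, or 2.15-fold, with an adjusted p of 0.0493, just inside the threshold. Leaving out any 1 of the 8 arrays ended the call, with changes between 0.94 and 1.25 and adjusted p between 0.0538 and 0.149. Without syngeneic arrays 3 and 4 the change was 0.82 (adjusted p = 0.153).

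The Cyp genes with the 5 next smallest p were Cyp2d26, Cyp2s1, Cyp2r1, Cyp3a13 and Cyp4f18, with adjusted p between 0.0526 and 0.215. Cyp2s1, a P450 of epithelia outside the liver, had signals of 8.54, 9.01, 8.80 and 9.03 on the allogeneic arrays, against 7.88, 8.29, 7.30 and 6.93 on the syngeneic arrays. The groups did not overlap, and the change was 1.24 ± 0.26 (adjusted p = 0.0735). Cyp2r1, the enzyme of the endoplasmic reticulum that starts vitamin D activation, had signals of 5.55, 6.02, 6.00 and 6.53 on the allogeneic arrays, against 4.61, 5.73, 4.39 and 4.34 on the syngeneic arrays. Syngeneic array 2 overlapped the allogeneic arrays, and the change was 1.26 ± 0.31 (adjusted p = 0.11). Without syngeneic array 2, Cyp2s1 (1.47, adjusted p = 0.0297), Cyp2r1 (1.58, adjusted p = 0.0232) and Cyp2d26 (1.75, adjusted p = 0.0232) passed the threshold, and none of the 3 passed with any other single array left out. The changes without syngeneic arrays 3 and 4 were 0.76 for Cyp2s1 (adjusted p = 0.154), 0.85 for Cyp2r1 (adjusted p = 0.396) and 1.05 for Cyp2d26 (adjusted p = 0.161).

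**Figure D4:**
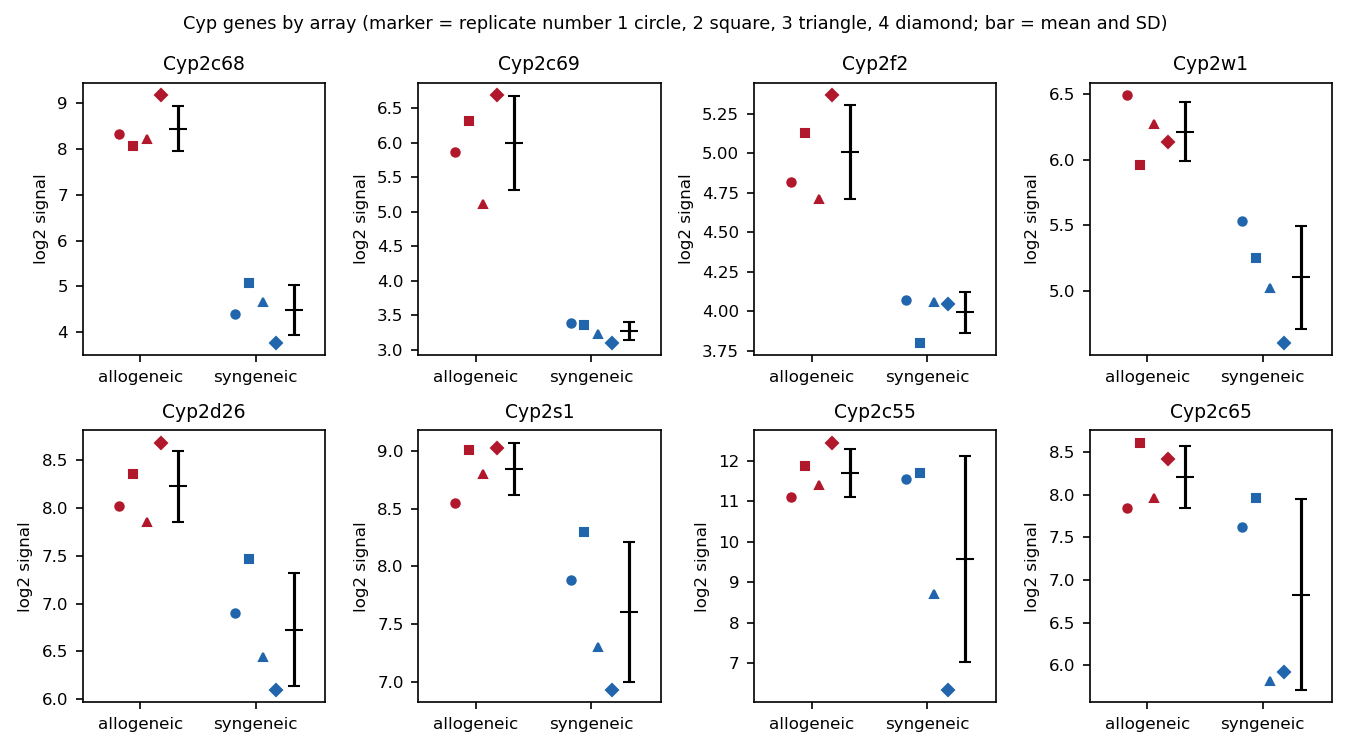
Log2 signal of 8 Cyp genes on each of the 4 allogeneic (red) and 4 syngeneic (blue) arrays, with mean and SD, each panel on its own scale. Cyp2c68 and Cyp2c69 are separated by group on all arrays, whereas for Cyp2c55 and Cyp2c65 syngeneic arrays 3 and 4 (triangle, diamond) lie far below all other arrays.

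Of the 10 Cyp2d genes, relatives of the human drug oxidase gene family, 0 passed the test, 7 had a positive change and the median was 0.26. Cyp2d26 had signals of 8.02, 8.36, 7.85 and 8.68 on the allogeneic arrays, against 6.90, 7.46, 6.44 and 6.10 on the syngeneic arrays. The groups did not overlap, and the change of 1.50 ± 0.28, or 2.83-fold, had an adjusted p of 0.0526. Cyp2d10 had a change of 1.23 with overlapping groups (adjusted p = 0.252), or 0.66 without syngeneic arrays 3 and 4. Cyp2d34, the member with the highest mean, 9.36, had a change of -0.0036 (95% interval -0.45 to 0.45), and Cyp2d22 one of -0.047 (95% interval -0.86 to 0.77). The pseudogenes Cyp2d13 and Cyp2d37-ps had changes of 0.56 and 0.15, and that of Cyp2d13 was 0.069 without these arrays.

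The Cyp2a, Cyp2b and Cyp2j genes gave no call. Cyp2a22, the Cyp2a gene with the highest mean, had signals of 5.43, 5.57, 5.32 and 5.04 on the allogeneic arrays, against 5.79, 5.66, 5.64 and 5.62 on the syngeneic arrays. All allogeneic values were lower, by 0.34 on average, and the adjusted p was 0.341. The 5 Cyp2b genes, which in liver respond to phenobarbital-type inducers, had changes between -0.20 and 0.047, with Cyp2b10 at 0.047 and Cyp2b23 at -0.20. The 7 Cyp2j genes, which include arachidonic acid epoxygenases, ranged between -0.43 and 0.50, and Cyp2j6, the member with the highest mean, was at 0.50 (adjusted p = 0.449), or 0.16 without syngeneic arrays 3 and 4. Cyp2e1, which oxidizes ethanol, had signals of 5.16, 5.37, 6.09 and 4.74 on the allogeneic arrays, against 5.01, 5.09, 5.06 and 7.23 on the syngeneic arrays, where array 4 stood alone. Cyp2g1, Cyp2t4, Cyp2u1 and Cyp2ab1 had changes between -0.19 and 0.23.

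Among the 7 Cyp3a genes, the main drug-oxidizing subfamily of liver and gut, 0 passed the test and 6 lay below the median gene. The one above it was Cyp3a13, a Cyp3a gene of mouse intestine, with 7.60, 7.21, 7.55 and 8.11 on the allogeneic arrays, against 7.00, 7.23, 6.30 and 5.94 on the syngeneic arrays. Allogeneic array 2 fell just below syngeneic array 2, and the change was 1.00 ± 0.29 (adjusted p = 0.159). Without syngeneic arrays 3 and 4 it was 0.50. Cyp3a11, the main hepatic member and a target of the xenobiotic receptor PXR, had a change of 0.0017 (95% interval -0.30 to 0.31).

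Of the 20 Cyp4 genes, 0 passed the test, 9 had a positive change and the median was -0.027. Within Cyp4f, Cyp4f14, which inactivates leukotriene B by hydroxylation, had signals of 8.05, 7.29, 7.52 and 7.68 on the allogeneic arrays, against 7.08, 7.44, 7.04 and 6.66 on the syngeneic arrays, a change of 0.58 (adjusted p = 0.25). Cyp4f18, a leukotriene hydroxylase of mouse neutrophils, had signals of 4.64, 4.35, 4.74 and 4.64 on the allogeneic arrays, against 5.12, 5.22, 4.85 and 4.89 on the syngeneic arrays. It was the Cyp gene with the smallest p among those with a negative change, at -0.43 ± 0.14 (adjusted p = 0.215), and its groups did not overlap. The sort kept cells negative for CD45 and CD11b, which neutrophils carry. The mean of the 9 measured leukocyte genes was 5.03 in allogeneic and 5.43 in syngeneic samples (exact permutation p = 0.0857), 3 of the 9 had a positive change, and 1, the neutrophil gene S100a8, fell in limma to signals near those of the Y-linked genes. Ly6g of the same list, with array values from 5.80 to 8.79, had a change of -1.17. Its groups did not overlap, and it did not pass (adjusted p = 0.222 in limma). The part of leukocytes in the Cyp4f18 values was not tested.

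Cyp4f40, the Cyp4 gene with the highest mean, had a change of 0.49 (adjusted p = 0.373), or 0.13 without syngeneic arrays 3 and 4, and Cyp4v3, the counterpart of a human fatty acid hydroxylase mutated in a retinal dystrophy, one of 0.64 (adjusted p = 0.374). The 6 Cyp4a genes, lipid-sensing PPAR alpha targets in liver, ranged between -0.49 for Cyp4a31 and 0.16 for Cyp4a12b. Cyp4b1 had a change of -0.20, its pseudogene Cyp4b1-ps2 one of 0.21, and Cyp4x1 one of -0.11.

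The enzymes of bile acid and oxysterol metabolism gave 0 calls among 6 genes. Cyp39a1, an oxysterol hydroxylase, had signals of 8.11, 8.34, 7.80 and 8.17 on the allogeneic arrays, against 7.98, 7.80, 6.32 and 6.82 on the syngeneic arrays. Syngeneic arrays 3 and 4 were again the low ones, and the change was 0.88 (adjusted p = 0.279), or 0.22 without them. Cyp27a1, the mitochondrial sterol hydroxylase, had a change of 0.33, and Cyp7b1, another oxysterol hydroxylase, one of -0.37. Cyp7a1, the rate-limiting enzyme of bile acid synthesis in liver, had low signal on every array, and Cyp8b1 and the brain cholesterol hydroxylase Cyp46a1 had changes of 0.073 and 0.045.

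Steroid hormone, vitamin D and retinoic acid enzymes were mostly of low signal. Of the 5 steroid hormone genes, 0 passed the test. Cyp11a1, which starts steroid synthesis and is active in the intestinal crypts of mice, had a change of -0.12, and its second probe set one of 0.15. Cyp11b1, which makes corticosterone, had a change of 0.0034 (95% interval -0.24 to 0.25), and Cyp17a1 and Cyp21a1 had changes of -0.035 and -0.0088. Cyp11b2, the aldosterone synthase, had 3.53, 3.47, 3.51 and 3.50 on the allogeneic arrays, against 3.05, 3.12, 3.20 and 3.38 on the syngeneic arrays, close to the Y-linked genes. These groups did not overlap, and the change was 0.31 (adjusted p = 0.219). Like Cyp2r1, the vitamin D genes Cyp27b1 (activation, 0.15) and Cyp24a1 (inactivation, -0.010) and the retinoic acid hydroxylases Cyp26a1 (0.0020), Cyp26b1 (-0.25) and Cyp26c1 (-0.048) did not pass. The Cyp1 genes, classic targets of the aryl hydrocarbon receptor, had changes of -0.082 for Cyp1a1, 0.13 for Cyp1a2 and -0.18 for Cyp1b1, and the orphan Cyp20a1 one of -0.28.

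The 11 Cyp genes with a log2 change of at least 1 did not all rest on the same arrays. In 8 of the 11, both syngeneic arrays 3 and 4 lay below both syngeneic arrays 1 and 2, an arrangement found in 26.8% of all Cyp genes and 21.4% of all genes. The 3 without it were Cyp2c68, Cyp2f2 and Cyp2d10. For Cyp2d10, syngeneic array 4 (5.48) lay just above array 2 (5.43), and its change of 1.23 was 0.66 without arrays 3 and 4. Without syngeneic arrays 3 and 4, 11 of the 11 changes were positive and 4 were still at least 1, those of Cyp2c68 (3.71), Cyp2c69 (2.63), Cyp2f2 (1.07) and Cyp2d26 (1.05). With the colon epithelial list mean as a covariate, 3 were at least 1, those of Cyp2c68 (3.35), Cyp2c69 (2.55) and Cyp2f2 (1.05). In that fit 1 Cyp gene, Cyp2c68, passed the test. Among all genes, the number that rose went from 79 to 4 and the number that fell from 25 to 3. The list mean was itself mostly higher on allogeneic arrays (exact permutation p = 0.0571). The fit therefore cannot fully separate donor type from epithelial signal, and why calls were lost was not tested.

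**Figure D5:**
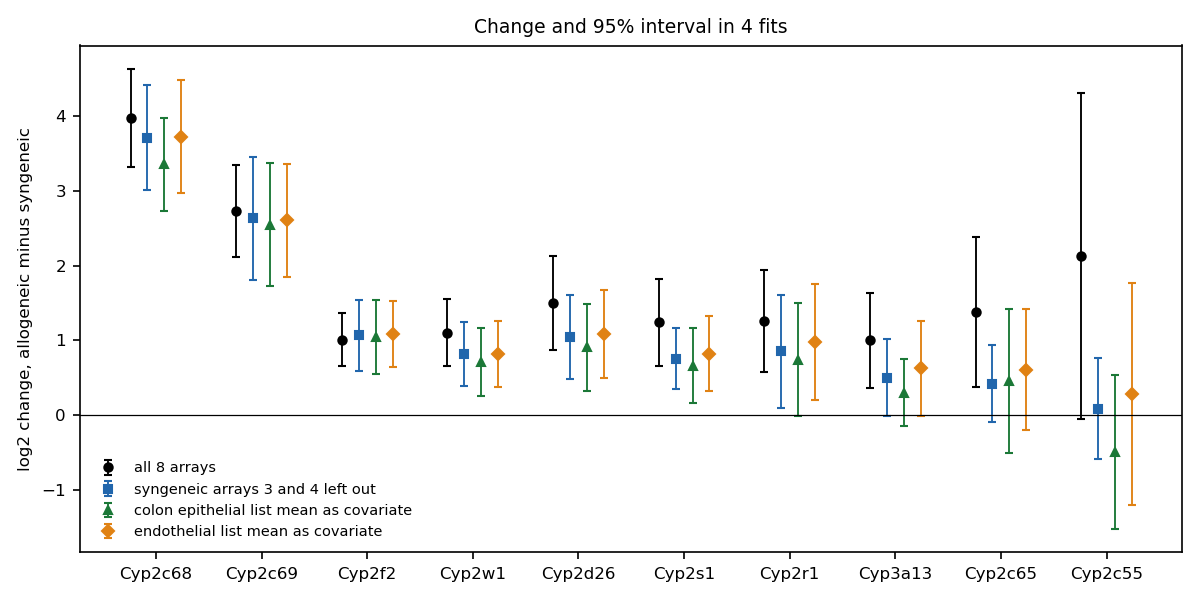
Log2 change, allogeneic minus syngeneic, with its 95% interval for 10 Cyp genes in the fit of all 8 arrays, without syngeneic arrays 3 and 4, and with the colon epithelial or endothelial list mean as covariate. Cyp2c68 stays between 3.35 and 3.97, whereas Cyp2c55 is at 2.13, 0.089, -0.50 and 0.29.

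Genes that serve the P450 enzymes or are related to them were examined in lists. These were electron partners with related genes, xenobiotic sensors, lipid and vitamin receptors, epoxide hydrolases, heme synthesis and P450 proteins with other names. Of 51 genes listed, 42 were measured and 0 passed the adjusted test in either direction in limma. In the electron partner lists, 6 of 7 microsomal and 2 of 4 mitochondrial genes were measured. Por and Fdxr, the genes of the P450 reductase and the ferredoxin reductase, were not among the genes measured, so their change is not known here. At an unadjusted p below 0.05, 8 of the 42 were higher, against a background of 7.81% of all genes, and 1 was lower, against 5.43%. Their median change was 0.12. Of the 42, 34 lay above the median gene, where 1465 of 11090 genes were higher by this rule and 803 lower. The 1 listed gene that was lower was Ahr, which encodes the aryl hydrocarbon receptor (-0.64, adjusted p = 0.325). Nr1i2, which encodes PXR, the receptor that induces Cyp3a and Cyp2b genes, averaged 8.54 ± 0.13 on allogeneic arrays, against 7.79 ± 0.23 on syngeneic arrays (SD, n = 4 per group), a change of 0.74 with adjusted p = 0.0545. Nqo1, a quinone reductase induced with the Cyp1 genes, averaged 7.51 ± 0.18 on allogeneic arrays, against 6.68 ± 0.23 on syngeneic arrays, a change of 0.82 with adjusted p = 0.0551. The groups did not overlap for either gene.

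The vitamin D receptor gene Vdr had a change of 0.74 (adjusted p = 0.237) and the fatty acid receptor gene Ppara one of 0.83 (adjusted p = 0.294). In heme synthesis all 7 measured genes had a positive change, with a median of 0.17, led by Cpox (0.51, adjusted p = 0.163) and Fech (0.46, adjusted p = 0.16). In the electron partner lists, Pgrmc1, a heme-binding partner of P450 enzymes, had a change of 0.50, Cyb5b one of -0.35 and the mitochondrial ferredoxin gene Fdx1 one of -0.084. The cholesterol carrier gene Star, listed with Fdx1 though not an electron carrier, had a change of -0.12. The epoxide hydrolase genes Ephx2, which degrades the epoxides of arachidonic acid, and Ephx4 had changes of 0.29 and 0.42, and Ephx1 and Ephx3 changes of 0.033 and -0.71, none past the test. Prostacyclin synthase, Ptgis, and thromboxane synthase, Tbxas1, both P450 proteins, had changes of 0.20 and -0.14.

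For the 4 genes that rose, the most alike genes were found from deviations from each group's mean over the 8 arrays, as a description with no test. They were Slc34a2 for Cyp2c68 (r = 0.98), Spon1 for Cyp2c69 (r = 0.99), Tbc1d17 for Cyp2f2 (r = 0.98) and Fank1 for Cyp2w1 (r = 0.99). With 22180 genes and 8 arrays, high values of r arise among many genes.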

How the data were processed

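Per the submitters' processing notes, Affymetrix Expression Console 1.4.1 was used with RMA, and the authors deposited 1 log2 value for each probe set and array. RMA corrects background, normalizes quantiles and summarizes probes, so small changes of low signals are compressed. The summary level and probe annotation were not given in the sources used here. Groups came from the sample titles, which call the samples biological replicates. Of 41345 probe sets, 23521 had 1 gene symbol, 1814 had several and 16010 had none. Only the first kind was tested, 1 per gene (22180 genes), and 6 probe sets shared by several genes including a Cyp gene are given or summarized as values.

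A model with the group as its only term was fitted with limma 3.58.1 in R 4.3.3 (lmFit, eBayes with intensity trend), without a filter on dim genes. Changes are allogeneic minus syngeneic. The Benjamini-Hochberg adjustment ran over all 22180 genes, with a threshold of 0.05. List means were compared by exact permutation over 70 labelled splits (smallest p 0.0286). Promoters came from RefSeq (GRCm38.p6), were matched by symbol for 71 of 97 genes and aligned with Biopython 1.88. The pipeline was tested on simulated data. Precision is set by the 4 arrays per group.

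The members, lists and tests were chosen with earlier results of these data known. Named genes were the called ones, per subfamily those with the highest mean and the largest change, non-overlapping members above the median gene, members with 2 probe sets, the 5 next smallest p, 2 per partner list, 4 markers, and the genes most alike the called ones. Cyp2c40, Cyp2c65, Cyp2c66, Cyp2d10, Cyp2d22, Cyp3a11, S100a8 and the remaining genes outside this rule were named after their values were seen. Alternatives covered the variance prior, dim genes, scaling, array weights, probe sets, the replicate block and each array left out. The fits without syngeneic arrays 3 and 4 and with marker lists as covariates were chosen after seeing the data. Neither batch nor date was modelled.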

Additional observations from a re-analysis of the deposited data

Results flagged for a closer look

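The probe set shared by Cyp2c67 and Cyp2c68, which entered no test, was 2.51 higher on allogeneic than on syngeneic arrays.

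Single arrays stood apart from the other 3 of their group for 6 of the 134 groups of 4 arrays that were examined, where chance gives about 1 in 20. Cyp2f2 was at 3.80 on syngeneic array 2, below 4.05 to 4.07 on the others, and without that array its change was 0.95 (adjusted p = 0.0446 in limma). Cyp2e1 was at 7.23 on syngeneic array 4, above 5.01 to 5.09 on the others. Cyp4b1 was at 6.00 on syngeneic array 1, below 6.87 to 7.04. On allogeneic arrays, Cyp1b1 was at 3.03 on array 2, below 3.19 to 3.21 on the others. Cyp26b1 was at 4.86 on allogeneic array 4, below 5.23 to 5.30. Tbxas1 was at 4.90 on allogeneic array 3, above 4.64 to 4.68.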

How the results depend on the processing

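The number of Cyp genes that rose was 4, and 0 fell in any fit. It was 2 with the mean of a gene's probe sets, 2 without syngeneic arrays 3 and 4, 2 with the endothelial list mean and 1 with the epithelial list mean as covariate. Leaving out 1 array gave 2 to 6, with 6 without syngeneic array 2. Of allogeneic and syngeneic arrays with the same number, deviations correlated at 0.055, 0.046, -0.096 and 0.095. Arrays of unlike number correlated between -0.15 and 0.12. Whether samples of the same number were handled together was not tested, and these correlations cannot decide it. With the replicate number as a block, 2 Cyp genes rose. The number of partner, sensor and heme genes that rose, 0, became 1 without the intensity trend, 1 with the robust prior, and 2 above the median gene, 2 with arrays centred on their medians and 2 with array weights. Leaving out 1 array gave 0 to 1. Above the median gene, or with arrays centred, Cyp2d26 passed (1.50, adjusted p = 0.0335, and 1.51, adjusted p = 0.0483), and above the median gene Cyp2s1 did (1.24, adjusted p = 0.0482). Among all genes, the count that rose was 79, and between 4 and 145 in the alternatives. It was 70 with the mean of a gene's probe sets and 26 without syngeneic arrays 3 and 4. With the endothelial list mean as covariate it was 15, and with the epithelial list mean 4. Of 45 named Cyp genes that did not pass in the main fit, 20 changed sign in at least 1 alternative, most of them close to 0, and the cause was not tested. Signs turned with the mean of the probe sets for Cyp11a1 (0.019) and Cyp2c29 (-0.024), with quantiles normalized again for Cyp21a1 (0.022) and Cyp24a1 (0.016), with centred arrays for Cyp21a1 (0.0029), Cyp24a1 (0.0016) and Cyp2d34 (0.0081), and with array weights for Cyp11b1 (-0.036), Cyp17a1 (0.0079), Cyp26a1 (-0.12) and Cyp2e1 (0.0095). Without syngeneic arrays 3 and 4 they turned for Cyp11a1 (0.13), Cyp11b1 (-0.13), Cyp17a1 (0.062), Cyp1a1 (0.011), Cyp1a2 (-0.035), Cyp26a1 (-0.21), Cyp2e1 (0.29), Cyp2g1 (0.087), Cyp4b1 (0.10), Cyp8b1 (-0.16), Pecam1 (0.13) and Cdh5 (0.065). With the epithelial list as covariate they turned for Cyp11a1 (0.17), Cyp11b1 (-0.15), Cyp1a2 (-0.085), Cyp26a1 (-0.26), Cyp2c55 (-0.50), Cyp2e1 (0.84), Cyp2g1 (0.065), Cyp8b1 (-0.082), Cyp2c29 (-0.0083), Pecam1 (0.24) and Cdh5 (0.19). With the endothelial list as covariate they turned for Cyp11a1 (0.12), Cyp11b1 (-0.13), Cyp1a1 (0.12), Cyp26a1 (-0.20), Cyp2e1 (0.48), Cyp2g1 (0.030), Cyp4b1 (0.17), Cyp8b1 (-0.11), Cyp2c29 (-0.035), Pecam1 (0.21) and Cdh5 (0.19). With 1 array left out, the ranges that crossed 0 were -0.23 to 0.039 for Cyp11a1, -0.056 to 0.050 for Cyp11b1, -0.14 to 0.13 for Cyp17a1, -0.30 to 0.039 for Cyp1a1, -0.068 to 0.045 for Cyp21a1, -0.15 to 0.19 for Cyp24a1 and -0.11 to 0.13 for Cyp26a1. They were -0.14 to 0.073 for Cyp26c1, -0.14 to 0.28 for Cyp2b10, -0.36 to 0.052 for Cyp2b23, -0.16 to 0.14 for Cyp2d34, -0.51 to 0.29 for Cyp2e1, -0.11 to 0.046 for Cyp2g1 and -0.0036 to 0.11 for Cyp46a1. The last were -0.011 to 0.35 for Cyp4b1-ps2, -0.039 to 0.17 for Cyp8b1, -0.016 to 0.14 for Cyp2c29, -0.0068 to 0.38 for the goblet list, -0.12 to 0.16 for the stromal list and -0.089 to 0.33 for the small intestine list. The number of arrays and the closeness of many Cyp signals to those of Y-linked genes limit what can be seen.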
